A study of Mus musculus with 23 samples.

Results

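Livers of mice without Ehhadh were compared with wild-type livers after every mouse of both groups had received L-AC. The groups were 5 knockout (KO) and 6 wild-type (WT) mice, 11 of the 23 mice of the series, taken by the genotype and treatment in their labels, and all expressed genes were examined. The other 12 mice, 5 KO and 7 WT, had received saline and are used here to show where a difference between genotypes was also seen without L-AC, at 31 to 44 weeks of age in KO and 29 to 45 weeks in WT. All mice carry the strain label B6/129. The KO and WT mice under L-AC were 28 to 38 and 28 to 44 weeks old, a mean of 32.6 ± 4.62 and 37.5 ± 5.99 weeks (SD), and this difference of -4.9 weeks had a two-sided p of 0.182 in an exact permutation test. The labels give L-AC as an abbreviation only. They leave out where Ehhadh was disrupted and whether WT mice were littermates, and dose, sex, batch and time of collection are not given in the sources used here.

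EHHADH is the L-bifunctional protein of peroxisomes, which catalyses the hydration and dehydrogenation steps in the middle of each round of peroxisomal beta-oxidation. In liver, this pathway shortens very long-chain fatty acids and the dicarboxylic acids that arise when microsomal cytochromes P450 oxidise the far, omega end of a fatty acid. In studies of this mouse L-AC is L-aminocarnitine, an inhibitor of carnitine palmitoyltransferase 2, which blocks the entry of long-chain fatty acids into mitochondrial oxidation. Peroxisomal oxidation yields acetyl-CoA, the starting unit of cholesterol synthesis, and cholesterol homeostasis is named in the title of the series. The genes of cholesterol synthesis are switched on together by the transcription factor SREBP2, aided by NF-Y, when sterols in the endoplasmic reticulum run low.

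The 11 libraries held 24521896 to 47824552 counted reads, with 26325848 to 31206300 in KO and 24521896 to 47824552 in WT. Levels are counts-per-million (CPM) over the scaled library size, and of 24062 genes 14196 had enough reads to be tested. Hepatocyte markers summed to 29470 to 51360 CPM in KO and 39840 to 49810 CPM in WT, with none of the 5 at 0. The median correlation of log2 levels between a library and the others of its group was 0.978 to 0.990. KO replicate 3 stood apart: 22 genes were over 3-fold higher in it than in the next library, against 11 in WT replicate 5, 5 in KO replicate 2 and at most 3 in each other library. Results that rest on KO replicates 2 and 3 are given below with and without them, a setting chosen after the data were seen.

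Only Ehhadh and Anxa13 passed the test between KO and WT livers under L-AC (edgeR, Benjamini-Hochberg adjusted p under 0.05), 2 of 14196 genes or 0.0141%. Ehhadh (chromosome 16, 21761285 to 21787834 of mm10) stood at 13730, 13210, 10260, 14170, 12190 and 14650 CPM in WT replicates 1 to 6 and at 2144, 1476, 1421, 1631 and 1617 CPM in KO replicates 1 to 5. The groups lay far apart, with the highest KO library well under the lowest WT library. The gene fell to 12.7% of the WT mean (log2 fold change -2.98, SE 0.257, adjusted p = 6.87e-07). The remaining reads are counted over all exons of the gene, so they do not show whether a working transcript was left. The genotype difference under saline was -2.75, and the difference between both effects was -0.22, SE 0.324 (adjusted p = 1).

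Anxa13 (chromosome 15, 58341464 to 58389274) encodes annexin A13, a protein that binds membrane phospholipids in the presence of calcium. Its level was 0.886, 1.49, 2.26, 2.42, 2.12 and 2.51 CPM in WT and 6.92, 8.76, 11.7, 12.98 and 3.37 CPM in KO replicates, from 32 to 118 reads in a WT library and 109 to 363 in a KO library. All 5 KO libraries lay above all 6 WT libraries, although KO replicate 5 was close to the highest WT library. Anxa13 rose by 2.17 on the log2 scale (SE 0.298, adjusted p = 0.00159). In the saline libraries it was 1.43 ± 0.361 CPM in WT (SD, n = 7) and 6.57 ± 1.99 CPM in KO (SD, n = 5), a log2 fold change of 2.19, SE 0.288 in mice that share no library with the L-AC groups. The difference between both effects was -0.03, SE 0.402. Of the other 10 annexins tested, none had an unadjusted p under 0.05. The call of Anxa13 under L-AC no longer held in a fit of the 11 L-AC libraries (2.16, adjusted p = 0.0605). Nor did it hold with mice of 28 to 38 weeks alone in the L-AC groups (2.27, adjusted p = 0.0743). Without KO replicates 2 and 3 it was also lost (1.99, adjusted p = 0.0525). The fits by age and without replicates kept all 12 saline libraries, whatever the age of the mice.

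**Figure D1:**
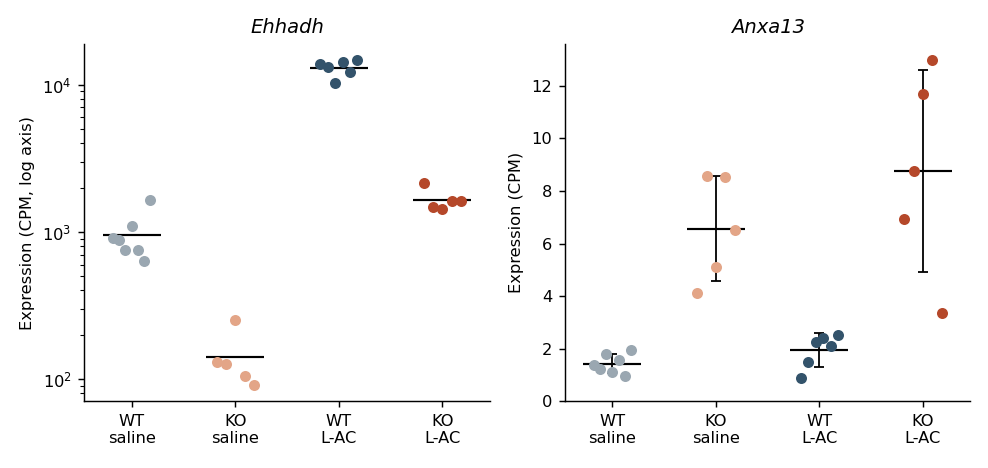
Level of Ehhadh (left, CPM on a log axis) and Anxa13 (right, CPM) in each of the 23 libraries by genotype and treatment. Points are mice and horizontal lines are group means, with the SD as error bars for Anxa13. The 5 KO libraries under L-AC lie at 1421 to 2144 CPM for Ehhadh, below all 6 WT libraries, and at 3.37 to 12.98 CPM for Anxa13, above all 6.

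At an unadjusted p under 0.05, 363 of the 14196 genes (2.56%) were higher and 280 (1.97%) lower in KO livers. All 5 KO libraries lay above all 6 WT libraries for 30 genes (0.211%) and below them for 34 genes (0.24%). The median log2 fold change of all genes was 0.0075, and 52.25% of the values were positive. Gene lists are described against these shares, by how many members had a positive value, reached an unadjusted p under 0.05 or separated the groups. The test of the difference between the genotype effects under L-AC and under saline called 0 genes by edgeR, with 320 at an unadjusted p under 0.05, and 0 by DESeq2.

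The other enzymes of the pathway that Ehhadh belongs to showed no member past the test. Of 15 core enzymes of peroxisomal beta-oxidation besides Ehhadh, 6 had a positive and 9 a negative log2 fold change, between -0.27 and 0.16 with a median of -0.05, and none had an unadjusted p under 0.05. Hsd17b4, the D-bifunctional protein that carries out the same steps as EHHADH with the opposite stereochemistry, was at 842 to 1266 CPM in WT and 907 to 1174 CPM in KO, with overlapping groups (-0.03, SE 0.107). The members with the largest differences were Acox2, the oxidase of branched-chain and bile acid intermediates (161 ± 35.8 in WT and 133 ± 33.3 CPM in KO, SD; -0.27, SE 0.188), and Amacr, the racemase acting just before it (160.1 ± 23.3 and 139 ± 20.3 CPM, SD; -0.20, SE 0.0988). The groups overlapped for both genes, and neither passed the test.

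Transporters, thioesterases and carnitine transferases of peroxisomes (20 genes, 12 positive, median 0.03) held 1 member at an unadjusted p under 0.05. This was Abcd4, listed here for its family of ABC transporters and not for a shown place in peroxisomes. Abcd4 was at 20.9, 16.5, 14.99, 16.6, 17.3 and 12.03 CPM in WT and 14.9, 12.5, 13.5, 14.98 and 11.8 CPM in KO (-0.28, SE 0.115, adjusted p = 1). Neither the 17 genes of peroxisome biogenesis (11 positive, median 0.02) nor the 18 of microsomal omega-oxidation (10 positive, median 0.01) held any. Among the latter, Cyp4a10, an omega-hydroxylase, was at 3150, 4566, 4225, 3811, 2399 and 4423 CPM in WT and 4288, 4478, 4785, 4862 and 2576 CPM in KO, where replicate 5 was the low library (0.16, SE 0.257). Cyp4a12b, of the same family, was at 129, 147, 159, 102, 83.2 and 165 and 73.8, 199.6, 193, 192 and 243 CPM, with KO replicate 1 below every WT library and the other 4 KO libraries above every one (0.46, SE 0.224, adjusted p = 1).

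Mitochondrial fatty acid oxidation and the carnitine shuttle (22 genes, 13 positive, median 0.01, range -0.11 to 0.11) and ketogenesis (7 genes, 5 positive, median 0.02) also held no member at an unadjusted p under 0.05. Cpt2, the enzyme that L-aminocarnitine inhibits, was at 407 to 536 CPM in WT and 444 to 553 CPM in KO (0.11, SE 0.0855). Cpt1a, which makes the acylcarnitines that enter mitochondria, was at 1127 to 1453 and 1040 to 1421 CPM (-0.11, SE 0.129). Targets of the lipid-sensing receptor PPARA outside fatty acid oxidation (21 genes, 16 positive, median 0.10) held 1 such gene. Creb3l3, a liver transcription factor of fasting metabolism, was at 597, 694, 669, 734, 658 and 752 CPM in WT and 740.1, 716, 958, 727 and 759 CPM in KO, with KO replicate 3 above all others (0.19, SE 0.0909, adjusted p = 1). With mice of 28 to 38 weeks alone the mitochondrial list had 21 of 22 positive (median 0.10, 2 at an unadjusted p under 0.05) and the PPARA list 15 of 21 (median 0.19, 4 at that threshold). That fit kept 3 WT and 5 KO mice under L-AC beside all 12 saline libraries. In it, 5.75% of all genes were higher and 3.27% lower at an unadjusted p under 0.05.

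Most genes of cholesterol synthesis had higher levels in the KO group under L-AC, though as single genes none passed the test over all 23 libraries. Of 22 tested genes, 21 had a positive log2 fold change with a median of 0.42, 9 had an unadjusted p under 0.05 in the higher direction (the background was 2.56%), and in 8 all KO libraries lay above all WT libraries (background 0.211%). With p-values adjusted over all genes, none of the 22 passed in fits over all 23 libraries by edgeR, by limma-voom or by DESeq2. In the edgeR fit of only the 11 L-AC libraries, Fdps (adjusted p = 0.0379) and Msmo1 (adjusted p = 0.0371) passed. Without KO replicates 2 and 3 the values were 19 positive, a median of 0.45 and 6 genes at an unadjusted p under 0.05. With age as a covariate they were 22, 0.37 and 7, and with mice of 28 to 38 weeks alone 19, 0.46 and 6. In the fit limited by age 5.75% of all genes were higher at that threshold. This share was not counted for the fit with age as a covariate or without KO replicates 2 and 3. This list was written knowing the title of the series and earlier results of these data, so its direction is not independent evidence.

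Promoters of 4 of the 8 genes that separated the groups are shown, because SREBP2 acts at such promoters together with NF-Y, whose binding motif is CCAAT. The stretches are the 250 bases before the transcription start on the gene's own strand, from RefSeq on GRCm38.p6, for Idi1 (chr13:8885356-8885605, plus strand), Cyp51 (chr5:4104698-4104947, minus strand), Msmo1 (chr8:64733579-64733828, minus strand) and Nsdhl (chrX:72918271-72918520, plus strand). Capitals mark CCAAT or, for the other strand, ATTGG.
Idi1: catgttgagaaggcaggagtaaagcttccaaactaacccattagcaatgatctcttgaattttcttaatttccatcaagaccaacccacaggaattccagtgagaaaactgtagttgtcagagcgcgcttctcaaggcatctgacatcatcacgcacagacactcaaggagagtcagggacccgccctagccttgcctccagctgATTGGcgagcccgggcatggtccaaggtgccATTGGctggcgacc
Cyp51: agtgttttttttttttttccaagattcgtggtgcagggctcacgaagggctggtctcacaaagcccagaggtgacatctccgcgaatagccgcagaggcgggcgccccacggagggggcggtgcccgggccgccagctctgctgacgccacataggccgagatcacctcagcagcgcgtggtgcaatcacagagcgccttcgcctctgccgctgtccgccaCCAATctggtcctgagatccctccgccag
Msmo1: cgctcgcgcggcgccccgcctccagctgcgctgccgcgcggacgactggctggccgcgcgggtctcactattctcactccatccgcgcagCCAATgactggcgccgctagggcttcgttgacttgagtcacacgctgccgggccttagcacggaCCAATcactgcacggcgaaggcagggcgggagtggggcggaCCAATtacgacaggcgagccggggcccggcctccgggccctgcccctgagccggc
Nsdhl: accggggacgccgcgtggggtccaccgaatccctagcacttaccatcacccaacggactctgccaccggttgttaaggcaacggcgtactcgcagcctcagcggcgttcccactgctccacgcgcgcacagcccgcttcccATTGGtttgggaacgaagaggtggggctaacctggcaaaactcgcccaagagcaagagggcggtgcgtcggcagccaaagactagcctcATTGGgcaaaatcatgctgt
The stretch of Idi1 held 2 matches, that of Cyp51 1, that of Msmo1 3 and that of Nsdhl 2, at 14 to 160 bases from the start. Of the 22 cholesterol synthesis genes, 17 had a promoter in the table, and 16 of these held CCAAT on either strand. Among 10475 tested genes with a promoter there 40.2% did, and among all 32851 windows of this length 33.8%. A form of the sterol regulatory element, TCACNCCAC on either strand, was found in 1 of the 17, Hmgcs1, and in 1.35% of the tested genes and 1.05% of the windows. Neither CCAAT nor ATTGG can lie within TCACNCCAC, and a match describes the sequence only.

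The early steps lead from acetyl-CoA to squalene epoxide, and all 11 of their genes had a positive log2 fold change (median 0.49, 0.01 to 1.48), 5 of them with separated groups. Idi1, the isopentenyl diphosphate isomerase (chromosome 13, 8885606 to 8892396), was at 3.79, 4.902, 3.96, 3.06, 2.37 and 2.92 CPM in WT and 5.93, 7.21, 13.6, 14.5 and 7.69 CPM in KO, where replicates 3 and 4 were highest. The groups did not overlap (1.48, SE 0.435, adjusted p = 0.711). Sqle, the squalene epoxidase that commits squalene to sterols (chromosome 15, 59315092 to 59331193), was at 7.67, 11.5, 5.21, 6.96, 6.52 and 5.73 CPM in WT and 14.8, 14.2, 24.8, 17.4 and 25.6 CPM in KO. Every KO library exceeded the highest WT library, replicate 2 (1.41, SE 0.473, adjusted p = 0.838).

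Fdps makes farnesyl diphosphate, the last common precursor of sterols and of prenyl groups on proteins (chromosome 3, 89093588 to 89101967). It was at 20.7, 18.5, 17.7, 25.9, 22.2 and 15.5 CPM in WT and 37.7, 48.01, 33.9, 34.6 and 49.95 CPM in KO, so that the lowest KO library stood clear of the highest WT library (1.02, SE 0.344, adjusted p = 0.838). In the fit of only the 11 L-AC libraries Fdps passed the test (1.02, adjusted p = 0.0379). The kinase Mvk and the decarboxylase Mvd act on mevalonate and its diphosphate. Mvk was at 3.49, 4.46, 3.19, 2.7, 2.53 and 2.51 CPM in WT and 5.05, 5.63, 5.696, 6.01 and 5.09 CPM in KO (0.80, SE 0.342). Mvd was at 1.83, 2.07, 1.495, 2.78, 1.93 and 1.85 CPM in WT and 3.104, 3.21, 4.59, 4.22 and 2.902 CPM in KO (0.85, SE 0.4202). Both separated the groups at low levels, and neither passed the test (adjusted p = 1 for each).

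Other early genes had overlapping groups. Hmgcs1, the synthase that makes HMG-CoA, was at 119.7, 119, 139.7, 105, 109 and 109 CPM in WT and 119.5, 151, 145, 194 and 147 CPM in KO (0.37, SE 0.341), and only KO replicate 1 lay inside the WT range. Fdft1, the squalene synthase, was at 21.5, 28.1, 30.7, 25.3, 24.9 and 22.2 and 29.1, 29.4, 45.9, 40.5 and 32.4 CPM and overlapped only between KO replicates 1 and 2 and WT replicate 3 (0.48, SE 0.211). Acat2 (0.16), the first thiolase, Pmvk (0.36), the second kinase of mevalonate, and Ggps1 (0.01), on the branch to geranylgeranyl groups, each had 1 KO library above every WT library and otherwise overlapping groups.

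The late steps turn squalene epoxide into lanosterol and lanosterol into cholesterol, and 10 of their 11 genes were positive (median 0.27, up to 1.04), 3 of them with separated groups. Msmo1, the methylsterol monooxygenase (chromosome 8, 64718145 to 64733578), was at 13.1, 14.3, 14.3, 12.97, 13.5 and 12.4 CPM in WT and 19.3, 23.8, 36.8, 30.9 and 27.2 CPM in KO. The WT libraries lay within a narrow band that every KO library exceeded (1.04, SE 0.387, adjusted p = 0.948), and the gene passed in the fit of the 11 libraries alone (adjusted p = 0.0371). Nsdhl, which acts after Msmo1 in removing methyl groups at carbon 4 of the sterol (chromosome X, 72918521 to 72958528), was at 9.74, 6.28, 9.25, 6.99, 6.28 and 8.07 CPM in WT and 10.3, 14.8, 11.4, 15.3 and 18.1 CPM in KO (0.85, SE 0.279, adjusted p = 0.836). Cyp51, the lanosterol demethylase (chromosome 5, 4080674 to 4104697), was at 27.2, 36.9, 27.9, 35.02, 23.4 and 25.5 CPM in WT and 46.1, 45.8, 46.3, 57.3 and 59.3 CPM in KO (0.80, SE 0.2899, adjusted p = 0.878). For both genes the lowest KO library was above the highest WT library.

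Tm7sf2, a sterol reductase, was at 89.2, 62.1, 65.5, 68.6, 59.5 and 88.6 CPM in WT and 90.8, 89.6, 53.9, 88.98 and 118 CPM in KO, with KO replicate 3 below all WT libraries, replicate 4 just inside their range and the other 3 above it (0.29, SE 0.136). Lss, the lanosterol synthase, was at 11.8 to 21.4 CPM in WT and 20.8 to 27.7 CPM in KO (0.47, SE 0.296), and only KO replicate 1 fell inside the WT range. Dhcr7, the reductase of the final step of one branch, was at 26.97 to 42.01 and 28.2 to 56.9 CPM (0.27, SE 0.326). Lbr, Hsd17b7, Ebp and Sc5d, also of the late steps, had log2 fold changes of 0.08, 0.11, 0.03 and 0.03 with overlapping groups.

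**Figure D2:**
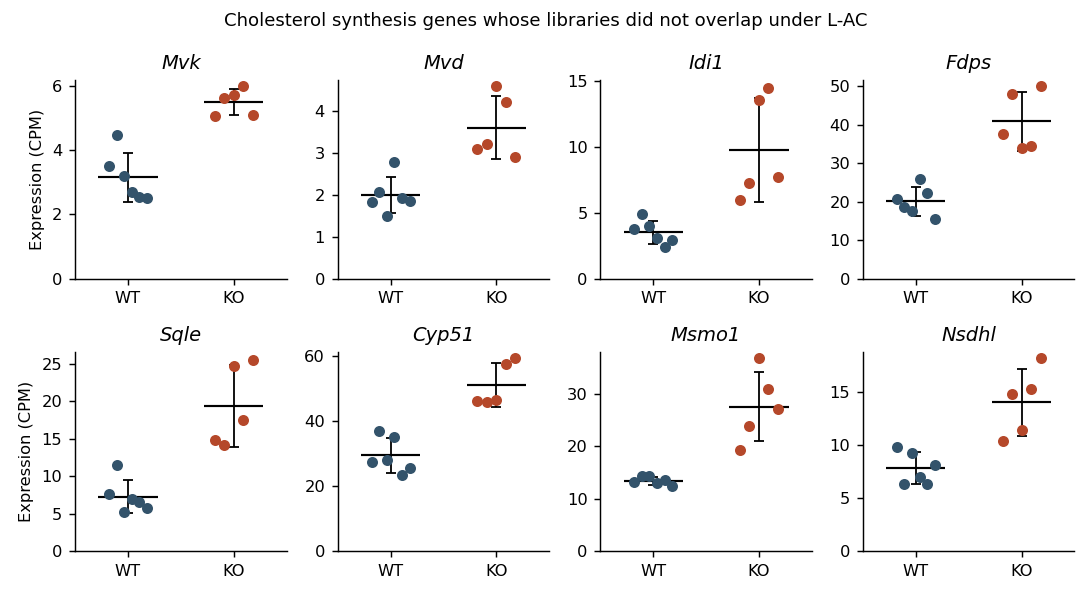
Level in CPM of the 8 cholesterol synthesis genes whose KO libraries all lay above all WT libraries under L-AC. Points are mice, horizontal lines are group means and error bars are the SD (6 WT, 5 KO). Msmo1 shows the WT libraries between 12.4 and 14.3 CPM and the KO libraries between 19.3 and 36.8 CPM.

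In saline livers, which share no library with the L-AC groups, 21 of the 22 genes were also positive, with a median of 0.38 and 5 at an unadjusted p under 0.05. The mean log2 level of the list under saline was 5.08 to 6.47 in WT and 5.25 to 6.44 in KO, so the groups overlapped broadly. As these genes are switched on together, the signs of single members are not separate results. The share of all genes at an unadjusted p under 0.05 under saline was not counted, so the 5 have no background beside them. Idi1 under saline was at 31.3 ± 26.9 in WT and 42.8 ± 16.98 CPM in KO (SD), a log2 fold change of 0.46, SE 0.3903, and Msmo1 at 90.2 ± 63.9 and 104 ± 54.96 CPM (0.20, SE 0.365). Pmvk (0.75) and Lss (0.76) had larger values under saline than under L-AC, while Idi1, Sqle and Msmo1 had larger values under L-AC. No difference between the effects passed the test, with 1.02, SE 0.587 for Idi1 and 0.99, SE 0.649 for Sqle (adjusted p = 1 and 1). In 19 of the 22 genes the WT mean was lower under L-AC than under saline, and in 15 the KO mean under L-AC lay between the 2 WT means, a description of group means that share the WT L-AC libraries with the genotype comparison.

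**Figure D3:**
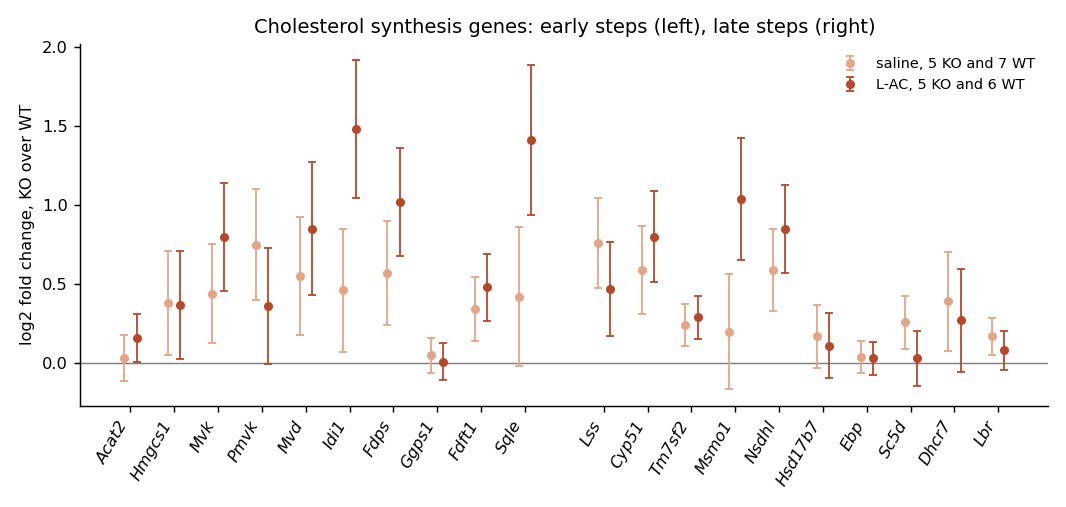
log2 fold change of KO over WT for 20 of the 22 tested cholesterol synthesis genes under saline (pale) and under L-AC (dark), early steps on the left and late steps on the right. Points are fitted values and error bars are 1 SE. All 20 values are above 0 under both treatments, while the 1 gene of the 22 that was negative under each treatment is not plotted, and Idi1 (1.48) and Sqle (1.41) are the highest under L-AC.

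Genes that control SREBP2 and take up sterols did not form a common shift (16 genes, 7 positive, median -0.01). The 2 members at an unadjusted p under 0.05 were both higher in KO. Insig1, which holds the SREBP escort protein in the endoplasmic reticulum and is itself an SREBP target (chromosome 5, 28071412 to 28078662), was at 23.7, 33.2, 37.05, 25.1, 18.9 and 33.5 CPM in WT and 34.8, 43.1, 46.7, 53.2 and 42.1 CPM in KO. The groups overlapped only at KO replicate 1 and WT replicate 3 (0.62, SE 0.183, adjusted p = 0.711). Under saline its value was 0.10, and the difference between both effects was 0.53, SE 0.255 (adjusted p = 1).

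Srebf2, the gene of SREBP2, was at 33.7 to 38.8 CPM in WT and 35.4 to 41.6 CPM in KO (0.06, SE 0.133). Srebf1, whose product drives fatty acid synthesis, was at 28.1 to 40.3 and 33.7 to 57.1 CPM (0.38, SE 0.218). Insig2 was at 4247, 1809, 1816, 2385, 2939 and 2365 CPM in WT and 1699, 1276, 1664, 1882 and 3884 CPM in KO, where replicate 5 stood above the other 4 (-0.32, SE 0.244). Targets of the sterol sensor LXR (13 genes, 7 positive, median 0.00), de novo lipogenesis (16 genes, 10 positive, median 0.07) and lipid droplet genes (21 genes, 11 positive, median 0.03) held no member at an unadjusted p under 0.05.

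**Figure D4:**
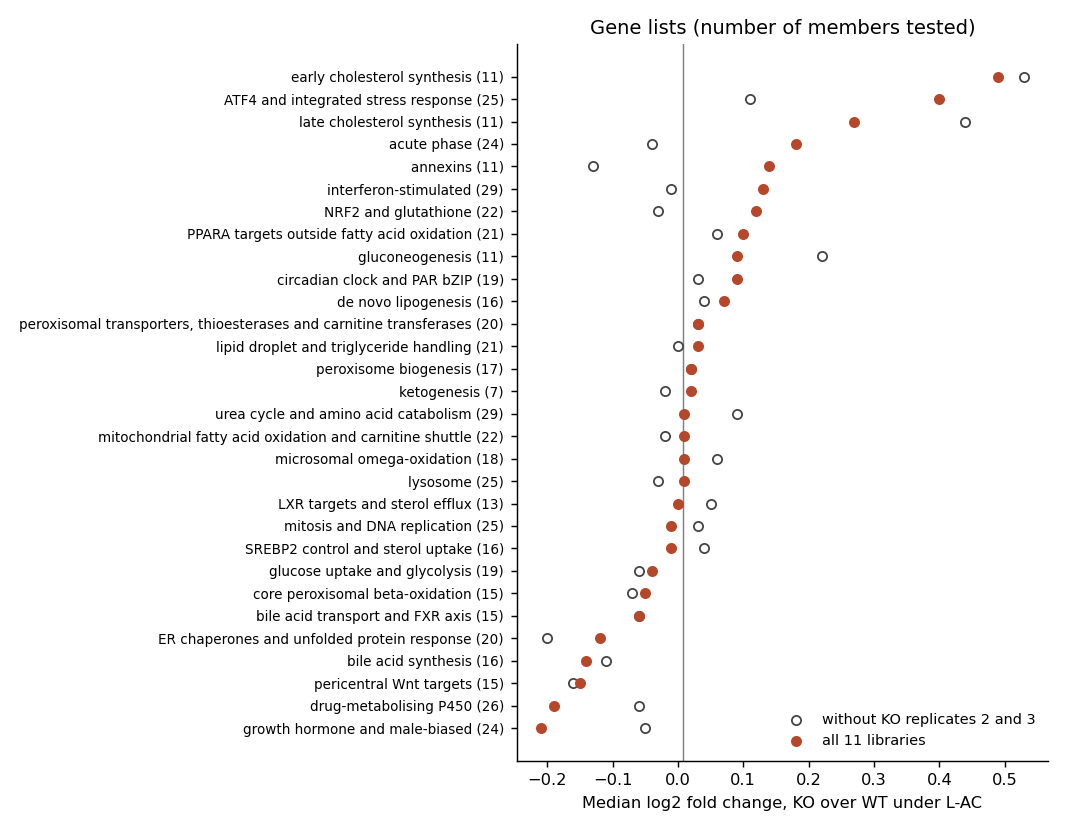
Median log2 fold change of KO over WT under L-AC for 30 pathway lists, with the number of members tested. Filled circles use all 11 libraries, open circles leave out KO replicates 2 and 3, and the vertical line is the median of all genes (0.0075). Early cholesterol synthesis is at 0.49, and at 0.53 without both libraries, while the stress response list moves from 0.40 to 0.11. Leaving out these libraries was chosen after the data were seen, and both lead the stress response list. The moves of the 2 lists therefore cannot be compared as a test.

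Bile acids are made from cholesterol, and their synthesis genes tended to values below 0 (16 genes, 2 positive, median -0.14), with no member at an unadjusted p under 0.05. Cyp27a1, the sterol hydroxylase of the alternative pathway, was at 364, 318, 381, 358, 285 and 399.9 CPM in WT and 261, 272, 275, 316 and 381 CPM in KO, with KO replicates 4 and 5 inside the WT range and the other 3 below it (-0.22, SE 0.107). Baat, which conjugates bile acids, was at 159 to 221 and 138 to 191 CPM (-0.19, SE 0.101). Bile acid transport and the receptor FXR's axis (15 genes, 6 positive, median -0.06) held no such member either. With mice of 28 to 38 weeks alone this list had 10 of 15 positive (median 0.11), with 4 higher and 1 lower at an unadjusted p under 0.05, and without WT replicate 5 it had 3 positive and 2 lower at that threshold. In the fit limited by age 5.75% of all genes were higher and 3.27% lower.

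Other ways of testing the same libraries called other genes. DESeq2 called 15 genes (0.106%) and edgeR on the 11 L-AC libraries alone 5 of 13536 (0.0369%), while limma-voom called 2, Ehhadh and Anxa13. Among those of the 11-library fit were Ehhadh, Igfbp5, Fdps and Msmo1. The genes that DESeq2 added to Ehhadh and Anxa13 were Cyp2s1, Enpp1, F2rl1, Fchsd1, Fosl1, Hmces, Igfbp5, Mb21d2, Pla1a, Ptpn14, Rell2, Timmdc1 and Ubl4. Igfbp5 was called by both DESeq2 (adjusted p = 0.0337) and the 11-library fit (0.0371), and not over all 23 libraries by edgeR (0.454).

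Of the 13 genes that DESeq2 added, 5 separated the groups. Mb21d2 (chromosome 16, 28826176 to 28929698) was at 25.8, 22.8, 26.5, 23.3, 23.4 and 22.9 CPM in WT and 31.1, 28.4, 36.7, 33.8 and 35.4 CPM in KO (0.46, SE 0.0958). Hmces, which shields damaged sites in single-stranded DNA (chromosome 6, 87913976 to 87936613), was at 9.85, 11.2, 11.1, 9.91, 11.2 and 9.6 CPM in WT and 14.5, 12.7, 13.5, 12.1 and 13.7 CPM in KO (0.34, SE 0.0807). Both genes showed small shifts over tight groups, with every KO library above every WT library.

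Pla1a, a secreted phospholipase that cleaves phosphatidylserine (chromosome 16, 38396117 to 38433145), was at 12.04, 16.6, 15.2, 13.2, 14.7 and 16.9 CPM in WT and 7.23, 10.8, 6.04, 7.76 and 9.66 CPM in KO (-0.83, SE 0.183), and under saline its value was -0.82, SE 0.177. Cyp2s1, a cytochrome P450 found mainly outside the liver (chromosome 7, 25802476 to 25816530), was at 1.14, 0.419, 0.525, 0.807, 1.13 and 0.362 CPM in WT and 0.205, 0.151, 0.207, 0.2502 and 0.185 CPM in KO, from 13 to 41 and 4 to 7 reads (-1.84, SE 0.357). Igfbp5, a secreted binder of insulin-like growth factors (chromosome 1, 72858065 to 72874865), was at 12.8, 7.37, 10.8, 18.2, 9.36 and 10.2 CPM in WT and 3.72, 4.87, 3.04, 3.75 and 2.72 CPM in KO (-1.66, SE 0.426). In these 3 genes every KO library was below every WT library.

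The other 8 genes that only DESeq2 called had overlapping groups. Timmdc1, an assembly factor of respiratory complex I (chromosome 16, 38497843 to 38522663), was at 17.9, 26.4, 28.2, 31.4, 18.4 and 26.2 CPM in WT and 30.2, 41.5, 44.1, 44.7 and 33.8 CPM in KO (0.65, SE 0.129). Ptpn14, a protein tyrosine phosphatase (chromosome 1, 189728268 to 189876693), was at 4.24, 5.59, 2.95, 7.85, 7.21 and 4.04 and 14.9, 6.76, 19.8, 5.15 and 15.5 CPM, with KO replicates 1, 3 and 5 high (1.22, SE 0.2801). Enpp1, an ectoenzyme that makes pyrophosphate, was at 29.3, 24.7, 24.3, 22.9, 23.01 and 24.2 CPM in WT and 18.2, 18.4, 16.3, 23.9 and 17.9 CPM in KO, where replicate 4 lay among the WT values (-0.39, SE 0.0918). Ubl4, a ubiquitin-like protein, was at 35.3 to 42.3 and 39.9 to 51.7 CPM (0.28, SE 0.0664), and its reads cannot be told from those of a read-through gene on the same strand.

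Fchsd1 was at 4.84, 5.17, 5.86, 6.35, 6.47 and 8.09 CPM in WT and 11.7, 12.96, 21.3, 5.58 and 14.4 CPM in KO (1.10, SE 0.2303), and its neighbour Rell2 at 1.08, 1.57, 1.74, 1.39, 1.62 and 2.49 and 3.75, 3.97, 5.42, 1.72 and 3.46 CPM (1.15, SE 0.241). In both, KO replicate 4 was the only KO library within the WT range. The genes overlap by 1746 bases on opposite strands, and reads there were counted for both, so they are not separate results. Fosl1, a subunit of the AP-1 transcription factor, was at 0.304, 0.2304, 0.121, 0.306, 0.468 and 0.298 CPM in WT and 0.546, 0.113, 11.8, 0.357 and 0.834 CPM in KO, and F2rl1, a receptor cleaved by trypsin-like proteases, at 0.194, 0.2304, 0.242, 0.167, 0.193 and 0.447 and 0.205, 0.453, 4.902, 0.429 and 1.82 CPM. Both values (3.21 and 2.63) rest on KO replicate 3, with replicate 5 next for F2rl1.

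Single libraries decided several of these calls by edgeR. Without KO replicate 4, Fchsd1 (1.30, adjusted p = 0.006), Rell2 (1.33, 0.0139), Ptpn14 (1.42, 0.0308) and Enpp1 (-0.48, 0.0294) passed the test. Without WT replicate 4, Timmdc1 did (0.73, adjusted p = 0.0345), and without WT replicate 6, Cyp2s1 (-1.99, 0.0362). For each of these genes the library left out was the one nearest to the other genotype. Its removal favours a pass, so these passes are no further support. Cyp2s1 also passed with mice of 28 to 38 weeks alone (-2.33, adjusted p = 0.00427).

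Further genes separated the groups without being called by any of these tests. With a mean level of 1 CPM or more and outside predicted transcripts there were 28 such genes above and 19 below WT, called ones included. Over all tested genes, such separation was about as frequent as without any genotype effect. Mtmr11, of the myotubularin family, was at 5.26, 4.29, 5.33, 5.76, 4.403 and 3.87 CPM in WT and 8.902, 5.78, 16.2, 6.58 and 7.75 CPM in KO (0.91, SE 0.224), with replicate 3 highest. Mad2l1bp, a partner of the spindle checkpoint protein MAD2, was at 4.403 to 5.88 and 6.42 to 7.49 CPM (0.45, SE 0.119). Klf16, a zinc finger repressor, was at 3.52 to 5.94 and 6.65 to 10.2 CPM (0.64, SE 0.177), Phf23 at 17.5 to 22.3 and 22.4 to 31.96 CPM (0.40, SE 0.118), and the kinase Cdkl2 at 6.39 to 8.34 and 8.69 to 9.67 CPM (0.29, SE 0.0909).

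On the lower side, Lrba, a protein of vesicle traffic, was at 42.1, 40.3, 38.9, 37.5, 40.2 and 36.5 CPM in WT and 33.5, 29.5, 31.8, 35.2 and 35.4 CPM in KO (-0.25, SE 0.0778). Med24, a subunit of the Mediator complex, was at 13.6 to 15.8 and 11.3 to 13.3 CPM (-0.23, SE 0.0773). Sult1d1, a cytosolic sulfotransferase, was at 50.2 to 69.4 and 27.2 to 50.2 CPM (-0.53, SE 0.192). Its WT replicate 6 and KO replicate 4 were both at 50.19 CPM, so the groups met at the digits given. Capn8, a calpain protease, was at 2.49, 3.39, 2.99, 1.95, 2.94 and 3.73 CPM in WT and 0.443, 1.55, 0.794, 0.393 and 1.05 CPM in KO (-1.79, SE 0.487). The adjusted p of these 9 genes was between 0.397 and 0.878, so each is a description of non-overlapping values and not a called difference.

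Ehhadh lies on chromosome 16, and the stretch around a targeted locus can keep the alleles of the strain in which the gene was targeted. On chromosome 16, 33 of the 441 tested genes other than Ehhadh had an unadjusted p under 0.05 (7.48%), against 609 of 13754 on other chromosomes (4.43%), and none was called by edgeR. By distance from Ehhadh the counts were 9 of 145 within 10 Mb (6.21%), 12 of 138 between 10 and 20 Mb (8.7%), 8 of 58 between 20 and 40 Mb (13.8%) and 4 of 100 beyond (4%). Of the 20 genes with the smallest p, 6 were on this chromosome, which holds 3.11% of the tested genes.

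These 6 were Ehhadh, Timmdc1, Mb21d2, Pla1a, Upk1b and Trmt10c. Timmdc1 and Pla1a lie 16.7 and 16.6 Mb from Ehhadh, and Mb21d2 7.04 Mb. Trmt10c, a subunit of mitochondrial RNase P at 34.25 Mb, was at 18.7, 14.7, 14.99, 16.7, 16.04 and 16.5 CPM in WT and 18.01, 20.8, 22.3, 21.9 and 21.2 CPM in KO (0.36, SE 0.0895), with only KO replicate 1 inside the WT range. Ift57, a protein of ciliary transport at 27.9 Mb, was at 1.16, 0.901, 0.849, 3.76, 1.46 and 0.426 CPM in WT and 3.96, 3.02, 5.94, 3.75 and 4.72 CPM in KO (1.59, SE 0.402). WT replicate 4 was the only WT library within the KO range, and without it Ift57 passed the test by edgeR (2.16, adjusted p = 0.0138). Leaving out the library that made the groups overlap favours a pass, so this is no further support. Under saline Ift57 was at 1.84 ± 0.829 in WT and 3.69 ± 0.293 CPM in KO (1.0, SE 0.3795). Trmt10c, Ift57, Arvcf and Polr2h were picked for description after their values were seen. Arvcf, a junction protein 3.35 Mb on the other side, was at 23.6 to 49.5 and 39.2 to 83.4 CPM (0.60, SE 0.196), and 0.60, SE 0.188 under saline. Polr2h, an RNA polymerase subunit 1.04 Mb from Ehhadh on that side, was at 6.26 to 7.08 and 6.82 to 11.2 CPM (0.33, SE 0.101), with -0.08 under saline. Whether sequence differences between strains alter these counts was not tested.

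Markers of mesothelial cells, which cover the surface of the liver, were lower in KO libraries. All 4 were negative (median -1.46), 3 had an unadjusted p under 0.05 in the lower direction (the background was 1.97%), and their summed level was 0.556 to 1.48 CPM in KO against 1.86 to 4.21 CPM in WT, with no overlap. In such bulk tissue, fewer cells of a type and less RNA per cell cannot be told apart. Upk1b, a uroplakin (chromosome 16, 38773184 to 38800203), was at 0.581, 0.2304, 0.242, 0.445, 0.468 and 0.255 CPM in WT and 0.102, 0.0378, 0.0345, 0.0715 and 0.0926 CPM in KO, that is 6 to 21 and 1 to 3 reads, with no overlap in CPM (-2.37, SE 0.577). Upk1b is also one of the chromosome 16 genes, 17 Mb from Ehhadh. Msln, mesothelin, was at 2.16, 0.545, 1.53, 1.84, 1.51 and 0.958 CPM in WT and 0.409, 0.491, 0.725, 0.608 and 0.3704 CPM in KO (-1.44, SE 0.561), and Upk3b at 1.02, 0.649, 1.05, 0.807, 0.5504 and 0.894 and 0.273, 0.227, 0.552, 0.357 and 0.0617 CPM (-1.49, SE 0.588). Wt1 was at 0.443, 0.4399, 0.404, 0.696, 0.413 and 0.404 CPM in WT and 0.682, 0.113, 0.173, 0.214 and 0.0309 CPM in KO, where replicate 1 stood with the WT libraries (-0.94, SE 0.4996). The adjusted p of these 4 genes was 0.387 to 1. In the saline livers the sum was 0.322 to 4.75 CPM in KO and 1.62 to 9.25 CPM in WT, and 0 of 4 were positive (median -0.62).

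A further 3 genes had every KO library below every WT library. Cd34, a surface protein of vessels and fibroblasts, was at 1.11, 1.17, 1.17, 2.48, 1.49 and 1.06 CPM in WT and 0.716, 0.604, 0.725, 0.822 and 0.617 CPM in KO (-1.02, SE 0.283), with WT replicate 4 highest. Aebp1, a matrix protein of fibroblasts, was at 2.52, 2.43, 1.74, 2.78, 2.83 and 2.19 and 1.23, 1.096, 1.62, 1.22 and 0.957 CPM (-0.98, SE 0.335). Ptgis, the prostacyclin synthase of vessel walls, was at 1.27, 1.28, 1.21, 1.197, 2.04 and 1.04 and 0.716, 0.831, 0.725, 0.643 and 0.587 CPM (-0.93, SE 0.253). The list of stellate cell and fibroblast markers had 1 of 10 members positive with a median of -0.09 (5 of 10 and 0.00 without WT replicate 5) and none at an unadjusted p under 0.05, at a summed 167 to 219 CPM in KO and 187 to 259 CPM in WT.

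Cholangiocyte markers were negative in 6 of 6 (median -0.48), with summed levels of 28.5 to 46.7 CPM in KO and 33.0 to 51.4 CPM in WT. The value of Krt19, a keratin of bile ducts, rests on WT replicate 5: it was at 0.415, 0.922, 0.364, 0.585, 5.999 and 0.447 CPM in WT and 0.273, 0.491, 0.173, 0.393 and 0.247 CPM in KO (-2.21, SE 0.645). WT replicate 5 was also highest in Krt7 (1.65 CPM) and Epcam (3.14 CPM), and without it the median of the list was -0.19. Endothelial markers had a median of 0.06 over 9 genes, 6 of them positive. Stab2, a scavenger receptor of sinusoidal endothelium, was at 49.98, 54.2, 44.9, 46.9, 55.5 and 47.5 CPM in WT and 44.2, 41.4, 37.6, 43.8 and 40.6 CPM in KO without overlap (-0.26, SE 0.107), while its value under saline was 0.14, SE 0.103. B cell markers were positive in 4 of 4 (median 0.80) at a summed 0.463 to 4.02 CPM in KO and 0.609 to 1.615 CPM in WT. KO replicate 1 was the high library, with Cd79a at 1.36 CPM, and without it the median of the list was 0.08. Under saline the B cell list also had 4 of 4 positive (median 0.63).

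Targets of ATF4 and the integrated stress response, the pathway that slows translation and raises amino acid supply under stress, were higher in 2 of the 5 KO livers. Over all libraries 20 of 25 genes were positive (median 0.40) and 11 had an unadjusted p under 0.05 in the higher direction (the background was 2.56%), none of them with separated groups. The mean log2 level of the list was 4.53 and 4.74 in KO replicates 2 and 3, 3.65 to 3.87 in the other KO libraries and 3.46 to 4.11 in WT. Without replicate 3 the count at an unadjusted p under 0.05 was 3, and without replicate 2 it was 6. Without both, a setting chosen after the data were seen, the count was 1, with 15 of 25 positive and a median of 0.11. With age as a covariate, or by limma-voom, the count was 6, and with mice of 28 to 38 weeks alone it was 11 (22 positive, median 0.60). In that last fit 5.75% of all genes were higher at this threshold, a share not counted for the other alternatives. Under saline 11 of the 25 were positive, with a median of -0.04.

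Ddit3, the stress-induced transcription factor also known as CHOP (chromosome 10, 127290793 to 127296288), was at 4.15, 5.89, 7.68, 5.84, 4.82 and 9.26 CPM in WT and 9.65, 24.2, 23.2, 6.93 and 5.77 CPM in KO (1.15, SE 0.325). Atf3, another such factor, was at 2.24, 5.13, 8.12, 2.81, 3.33 and 20.1 CPM in WT and 4.57, 25.99, 43.4, 11.1 and 8.67 CPM in KO (1.42, SE 0.545). KO replicates 2 and 3 were highest for both, and WT replicate 6 exceeded the other 3 KO libraries for Atf3. Chac1, which breaks down glutathione, was at 2.91, 0.649, 3.52, 2.12, 3.33 and 7.07 and 3.31, 12.3, 17.4, 2.97 and 3.61 CPM (1.27, SE 0.587), and Nupr1, a small chromatin protein, at 0.553, 1.66, 0.727, 0.835, 1.404 and 1.298 and 0.989, 3.51, 8.84, 0.965 and 0.309 CPM (1.42, SE 0.534). Again replicates 2 and 3 set the KO mean, and without them the value of Nupr1 was -0.54.

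Atf4 itself was at 104, 84.8, 88.8, 93.5, 112 and 141 CPM in WT and 133, 173, 141, 108 and 132 CPM in KO, with broad overlap (0.40, SE 0.156). Slc7a1, a carrier of cationic amino acids, was at 1.38, 0.985, 1.41, 1.11, 2.12 and 1.47 and 1.64, 1.7, 5.87, 1.25 and 2.81 CPM, with KO replicate 3 highest (0.91, SE 0.327). Ppp1r15a, which restores translation, was at 16.6 to 25.8 and 19.9 to 30.1 CPM (0.27, SE 0.11). Trib3 was at 18.04 to 47.7 and 18 to 84.9 CPM (0.78, SE 0.388), Sesn2 at 16.6 to 31.5 and 19.5 to 25.4 CPM (-0.14, SE 0.139), and Asns, the asparagine synthetase, at 2.06 to 7.12 and 4.72 to 11.7 CPM (0.70, SE 0.885). The secreted hormones of the pathway spread widely within both groups. Fgf21 was at 25.3, 75.03, 58.4, 39.9, 15.7 and 94.9 CPM in WT and 93.8, 203, 51.8, 66.4 and 23.6 CPM in KO (0.77, SE 0.479), and Gdf15 at 17.7, 76.6, 78.99, 62.6, 46.8 and 118 and 54.9, 122, 91.7, 74.4 and 91.8 CPM (0.38, SE 0.378).

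KO replicate 3 also led several other genes, of which Lgals3 was picked after its values were seen. Slc7a11, the cystine importer, was at 7.73 CPM there against 0.608 to 0.679 CPM in the other KO libraries and 0.332 to 0.727 CPM in WT. Lgals3, a galectin of activated macrophages and injured epithelium, was at 1.63, 2.56, 3.07, 2.39, 2.83 and 1.94 CPM in WT and 3.92, 4.53, 40.3, 1.72 and 2.44 CPM in KO (2.14, SE 0.572). Cd68, a lysosomal protein of macrophages, was at 8.63, 8.29, 12.8, 9.55, 16.2 and 9.96 and 10.7, 9.595, 66.04, 7.29 and 17.9 CPM (1.03, SE 0.424), and Gpnmb, of lipid-laden macrophages, at 3.24, 4.44, 5.09, 8.91, 13.4 and 3.06 and 4.47, 12.1, 39.3, 2.72 and 7.19 CPM (1.05, SE 0.552). The 10 macrophage markers summed to 195 CPM in KO replicate 3, to 63.8 to 123.5 CPM in the other KO libraries and to 72.7 to 136 CPM in WT, and over all libraries 6 of 10 were positive (median 0.02). The 7 markers of monocyte-derived and lipid-laden macrophages had 3 positive (median -0.04). Cd9, the member at an unadjusted p under 0.05, was at 18.7 to 27.9 CPM in WT and 18.8 to 31.8 CPM in KO (0.30, SE 0.146). The part of macrophages in the values of replicate 3 was not tested.

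**Figure D5:**
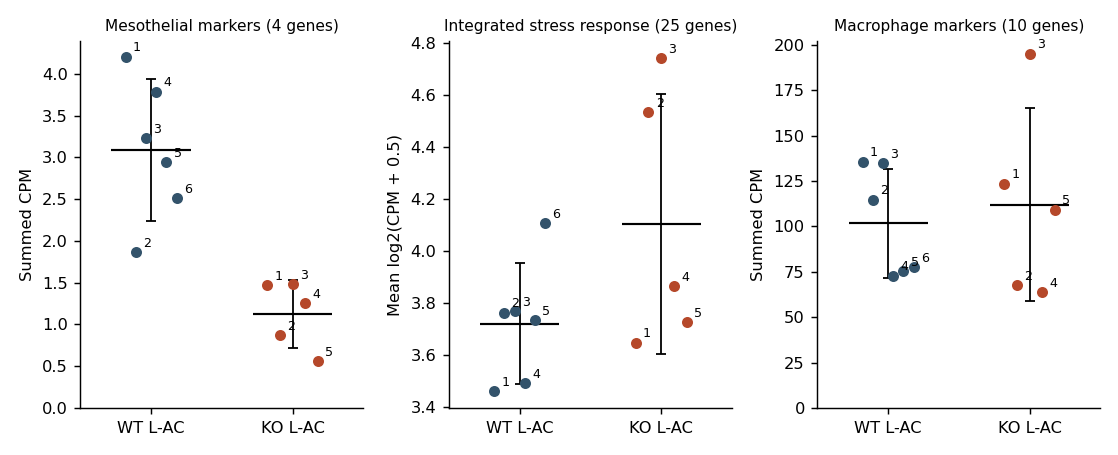
Summed CPM of 4 mesothelial markers (left), mean log2(CPM + 0.5) of 25 integrated stress response genes (middle) and summed CPM of 10 macrophage markers (right) in each L-AC library. Points carry the replicate number, horizontal lines are group means and error bars the SD. Mesothelial sums do not overlap between genotypes, while KO replicates 2 and 3 (4.53 and 4.74) lead the middle panel and KO replicate 3 (195 CPM) the right one.

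The NRF2 and glutathione list (22 genes, 16 positive, median 0.12) held 4 members at an unadjusted p under 0.05: Slc7a11, Pgd, Gsta1 and Gss. Pgd, of the pentose phosphate pathway, was at 40.7, 42.5, 50.2, 63.05, 56.4 and 57.1 CPM in WT and 50.8, 65.8, 91.7, 56.5 and 68.2 CPM in KO (0.37, SE 0.145), and Gsta1, a glutathione transferase, at 6.01, 3.75, 12.9, 7.71, 7.07 and 10.7 and 3.24, 7.67, 44.1, 10.4 and 15.9 CPM (1.03, SE 0.489). KO replicate 3 was highest for both. Without KO replicates 2 and 3 the list had 9 of 22 positive, a median of -0.03 and 0 members at that threshold. Chaperones of the endoplasmic reticulum had 3 of 20 positive (median -0.12) and no member at that threshold. Under L-AC this direction rests on WT replicate 5, the highest library (mean log2 level 7.52, against 6.22 to 6.81 in the other WT libraries). Without it 14 of 20 were positive (median 0.09). Under saline, where that library takes no part, 3 of the 20 were positive (median -0.21).

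Acute phase genes had 15 of 24 positive (median 0.18) and 2 at an unadjusted p under 0.05. Lcn2, an iron-scavenging protein of inflammation, was at 29.2, 33.1, 30.7, 38.02, 29.2 and 20.7 CPM in WT and 65.6, 586, 9.46, 49.8 and 7.62 CPM in KO, with replicate 2 far above the rest and replicates 3 and 5 below all WT libraries (2.25, SE 0.816). Orm2, an acid glycoprotein, was at 54.9, 50.6, 24.9, 26.1, 40.2 and 47.9 and 82.8, 95.8, 66.9, 30.6 and 139 CPM (1.03, SE 0.373), and its values under saline were -0.72, SE 0.375, with a difference between both effects of 1.75, SE 0.5298 (adjusted p = 1). Saa2, a serum amyloid, ranged from 7.301 to 434 CPM in WT and from 10.8 to 3674 CPM in KO, with KO replicates 1 and 2 highest (2.67, SE 1.404). Without KO replicate 2 the list had 8 of 24 positive (median -0.14), and without KO replicate 3 it had 17 positive (median 0.30) and 5 at an unadjusted p under 0.05.

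Interferon-stimulated genes had 21 of 29 positive (median 0.13) and 2 at an unadjusted p under 0.05. Usp18, which removes the ubiquitin-like protein ISG15, was at 1.97, 2.18, 5.09, 1.89, 1.38 and 2.85 CPM in WT and 2.42, 2.23, 8.91, 2.15 and 11.9 CPM in KO, high in KO replicates 3 and 5 (1.13, SE 0.435). Isg15 was at 0.8303, 1.09, 2.26, 0.891, 0.798 and 0.8302 and 1.09, 1.59, 3.42, 1.61 and 1.98 CPM (0.82, SE 0.35). Without KO replicate 3 the list had 13 of 29 positive (median -0.03), while with mice of 28 to 38 weeks alone it had 27 positive (median 0.66) and 8 at an unadjusted p under 0.05. In the latter fit 5.75% of all genes were higher at that threshold.

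Cytochromes P450 of drug metabolism had 5 of 26 positive (median -0.19), with 2 at an unadjusted p under 0.05 in the lower direction. Cyp1a2, which oxidises caffeine and also aromatic amines, was at 275, 250.5, 234, 247, 220.3 and 187 CPM in WT and 190.0, 136, 156, 159.7 and 236 CPM in KO. KO replicate 5 lay inside the WT range and KO replicate 1 just above the lowest WT library (-0.42, SE 0.167, adjusted p = 0.992). Cyp2d22 was at 206, 197, 215, 229, 188 and 206 and 167, 174, 172, 192 and 186 CPM (-0.21, SE 0.0967), and Cyp2d9, a male-biased hydroxylase, at 868 to 1444 and 603 to 1076 CPM (-0.37, SE 0.1804). Cyp2e1, which oxidises ethanol near the central vein, was at 5958, 5373, 6034, 6846, 5536 and 6179 CPM in WT and 4117, 6537, 2885, 6799 and 4042 CPM in KO, with replicates 1, 3 and 5 below all WT libraries and replicates 2 and 4 among the highest (-0.30, SE 0.166). Under saline 18 of the 26 were positive (median 0.06). Without KO replicates 2 and 3 the median under L-AC was -0.06, with age as a covariate -0.28.

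Pericentral Wnt targets, which share Cyp1a2 and Cyp2e1 with that list, had 4 of 15 positive (median -0.15). With mice of 28 to 38 weeks alone 8 of 15 were positive (median 0.11), with age as a covariate the median was -0.03 and without KO replicate 3 it was -0.05. Growth hormone dependent and male-biased genes had 4 of 24 positive (median -0.21), and -0.05 without KO replicates 2 and 3. Mup1, a major urinary protein, was at 966, 736, 1093, 887, 1056 and 686 CPM in WT and 517, 673, 547, 762 and 454 CPM in KO, with only replicate 4 inside the WT range (-0.61, SE 0.266, adjusted p = 1). Reads of Mup1 cannot be told from those of its near-identical relatives.

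Clock genes and PAR bZIP factors had 10 of 19 positive (median 0.09), with 4 at an unadjusted p under 0.05 in the higher direction and 0 without KO replicates 2 and 3. Dbp, a clock output factor, was at 5.73, 11.9, 24.1, 22.6, 28.6 and 14.4 CPM in WT and 10.5, 60.7, 57.5, 49.3 and 14.2 CPM in KO, high in replicates 2, 3 and 4 (1.11, SE 0.513). Bhlhe40 was at 46.5, 29.6, 54.5, 38.3, 58.6 and 72.03 and 34.1, 91.7, 100.5, 57.8 and 137 CPM (0.75, SE 0.276). Per3 was at 3.92 to 11.1 and 5.83 to 18.3 CPM (0.81, SE 0.383), and Nr1d2 at 50.5 to 91.1 and 71.4 to 95.6 CPM (0.32, SE 0.142). These genes follow the time of day, which the labels do not give.

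The urea cycle and amino acid catabolism list (29 genes, 16 positive, median 0.01) held 1 such gene, Sds, the serine dehydratase, at 96.2, 78.5, 79.8, 106, 122 and 142 CPM in WT and 121, 259.8, 177, 131 and 111 CPM in KO (0.62, SE 0.267). Gluconeogenesis (11 genes, 8 positive, median 0.09), glycolysis (19 genes, 8 positive, median -0.04), mitosis and DNA replication (25 genes, 12 positive, median -0.01) and lysosomal genes (25 genes, 14 positive, median 0.01) held no member at an unadjusted p under 0.05. The same held for markers of hepatocytes (5 genes, 0 positive, median -0.05), T and NK cells (3 genes, median 0.16), neutrophils (3 genes, median 0.25, and -0.07 without KO replicate 3), erythroid cells (5 genes, all positive, median 0.21, and -0.13 without KO replicate 1), adipocytes (3 genes, median 0.03) and pancreatic acinar cells (1 gene, -0.04).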

How the data were processed

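RNA of liver, selected by poly(A), was sequenced as 100-base single-end reads, per the labels' protocols. The deposited values are raw read counts per gene. The authors counted exons with featureCounts 1.4.4 on UCSC mm10 genes, primary alignments only, without strand and for every gene a read overlapped, per the file headers, after alignment with STAR 2.4.0, per the submitters' processing notes. Overlapping and antisense genes therefore share reads, and near-identical genes can split them.

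Groups came from the labels, which number each library but do not say in words that each is a separate animal, so p-values measure the spread between these samples. Replicates are numbered in accession order, which pairs none. Among 25 pairs of L-AC replicates the chi-square of genes with 20 reads or more was never under 44.05 times its degrees of freedom, so none was 1 library deposited again. Depth was 24521896 to 48095959 reads over the 23 libraries, which limits genes with few reads.

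Genes were kept by filterByExpr (minimum count 10, total 15). TMM scaling was followed by a fit with edgeR 4.0.16 (quasi-likelihood test, R 4.3.3), with 1 mean per group over all 23 libraries. P-values are two-sided, adjusted by Benjamini-Hochberg over all genes tested, and called under 0.05. SE denotes the standard error of log2 fold changes. The script was tested on simulated data. Alternatives were DESeq2 1.42.0, limma-voom (limma 3.58.1), other filters, size factors, age as a covariate, mice of 28 to 38 weeks (3 WT, 5 KO), the 11 libraries alone, and libraries left out. The limit of 28 to 38 weeks applied to the L-AC groups only, and all saline libraries stayed in that fit.

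The text names Ehhadh, genes called by any tool, up to 10 genes per direction whose libraries did not overlap, cholesterol synthesis and core peroxisomal genes, and up to 5 genes of smallest p per list, beside well-known members of the stress response. The 43 lists hold 638 symbols, of which 631 matched and 601 were tested. Members and lists were chosen with earlier results of these data known. The values of a few genes under this rule are left out. Promoters are those of RefSeq.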

Additional observations from a re-analysis of the deposited data

Results flagged for a closer look

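Among 218 combinations of a named gene and an L-AC group, 26 held a library set apart from the rest by a gap large against the group's range. The rule is set to flag about 1 in 20 groups by chance. Many of these genes were named for their values in the same libraries, so the 26 cannot be read against that rate. In KO replicate 3 these were Fosl1 at 11.8 CPM (other KO libraries 0.113 to 0.834), Slc7a11 at 7.73 (0.608 to 0.679), Creb3l3 at 958.5 (716 to 759), Cd68 at 66.0 (7.29 to 17.9), Gpnmb at 39.3 (2.72 to 12.1) and Lgals3 at 40.3 CPM (1.72 to 4.53). In KO replicate 5 Cyp4a10 was low at 2576 CPM (4288 to 4862), and Hsd17b7 at 212 (116 to 125), Lbr at 14.4 (8.83 to 10.4) and Insig2 at 3884 CPM (1276 to 1882) were high.

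In KO replicate 1 Wt1 at 0.682 (0.0309 to 0.214) and Cd79a at 1.36 CPM (0.216 to 0.465) were high. In KO replicate 2 Lcn2 stood at 586 CPM (7.63 to 65.6) and Arvcf at 83.4 CPM (39.2 to 45.8). In KO replicate 4 Enpp1 stood at 23.9 CPM (16.3 to 18.4).

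Among WT libraries, replicate 5 stood high in Krt19 at 5.999 CPM (0.364 to 0.922), Krt7 at 1.65 (0.332 to 0.691), Epcam at 3.14 (0.647 to 1.25) and Ptgis at 2.04 CPM (1.04 to 1.28). Replicate 4 stood high in Cd34 at 2.48 CPM (1.06 to 1.49), Wt1 at 0.696 (0.404 to 0.443) and Ift57 at 3.76 CPM (0.426 to 1.46). Replicate 6 stood high in Atf3 at 20.1 CPM (2.24 to 8.12) and F2rl1 at 0.447 (0.167 to 0.242), replicate 1 in Enpp1 at 29.3 (22.9 to 24.7) and replicate 3 in Isg15 at 2.26 CPM (0.798 to 1.09).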

How the results depend on the processing

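The count of called genes, 2 by edgeR, was 15 with DESeq2, 5 with the 11 L-AC libraries alone and 1 without KO replicates 2 and 3, a setting chosen after seeing the data. It ran from 2 to 6 when each library was left out in turn, with 6 without KO replicate 4 and 4 without WT replicate 4 or KO replicate 2. It stayed at 2 in the other alternatives. The call of Ehhadh held in all 20 alternatives, with an adjusted p of at most 0.000241. The sign held in every alternative for 100 of 109 named genes. It turned for 9, none of them called by any tool, and the cause was not tested. With mice of 28 to 38 weeks alone these were Hsd17b4 (0.12), Pmvk (-0.11), Hsd17b7 (-0.06) and Lbr (-0.07). By limma-voom it was Ggps1 (-0.001). Without KO replicates 2 and 3 these were Ggps1 (-0.01), Sc5d (-0.07), Nupr1 (-0.54) and Gpnmb (-0.41). With each library left out in turn, the values ran from -0.08 to 0.03 for Hsd17b4, -0.06 to 0.07 for Ggps1, -0.09 to 0.25 for Hsd17b7, -0.02 to 0.12 for Ebp, -0.06 to 0.17 for Sc5d and -0.06 to 0.18 for Lbr. Of 44 list medians, that of both cholesterol lists joined included, 31 moved by less than 1 SD in every alternative. The difference in age had an exact two-sided p of 0.268 by ranks. No paired analysis was possible because the replicates carry no number that the labels share between groups. Genes with few reads, such as Upk1b and Cyp2s1, are limited by depth.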
